A study of Homo sapiens with 6 samples.

Results

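Chromatin accessibility was examined at 10 genes of the G2/M phase of the cell cycle that are known as targets of the transcription factor NF-Y: the cyclins CCNA2, CCNB1 and CCNB2, the kinase CDK1 and its activator CDC25C, the mitotic kinases PLK1 and AURKA, the anaphase activator CDC20, the topoisomerase TOP2A and the survivin gene BIRC5. The genes were chosen by name, among 20033 protein-coding genes of the annotation, and every peak within 1 kb of any of their annotated starts, in the gene body or within 5 kb of it was taken. The measurements were ATAC-seq peaks of HLF, a cell line derived from a human liver cancer. ATAC-seq uses the transposase Tn5 to tag DNA that nucleosomes leave free. Cells received DMSO, the vehicle, or 5 μM SNDX-5613, a small molecule (revumenib) that blocks the binding of menin to the histone methyltransferase MLL1, with 3 libraries per group and 1 common batch in the labels. The labels give 24 h of treatment, whereas the study's methods describe a longer one for this assay, so the duration is uncertain. The labels do not tie libraries to cultures. The study's methods describe a replicate as 1 dish whose cells were divided between the treatments, but do not match replicate numbers to dishes. The comparison asks whether blocking menin changes how open the promoters of these NF-Y targets are.

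NF-Y is a trimer of NF-YA, NF-YB and NF-YC that binds the CCAAT box, a short element found upstream of many transcription starts. Many genes that peak in G2 and mitosis carry several CCAAT boxes close to their start and, downstream of them, a cell cycle genes homology region (CHR), which recruits the DREAM complex in resting cells and the MuvB, B-MYB and FOXM1 assemblies in dividing cells. Their products drive entry into mitosis, separation of the chromosomes and exit from mitosis, and in liver cancer they are widely used as markers of proliferation.

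The 6 libraries differed in depth, which was read from the peak lists because read totals were not given. The most frequent background pileup, a relative measure of depth, was between 0.997 and 1.51 in 5 libraries and 0.211 in SNDX-5613 replicate 3. That library held 40568 peak regions, against 88026 to 113675 in the others. Of the fixed marker lists, the 5 mesenchymal genes had a promoter peak in every library. None of the 6 hepatocyte genes reported did, and ALB, APOA1 and HNF4A had no promoter peak in any library. APOB and TTR had one in 5 libraries and SERPINA1 in 2. The promoters of the mesenchymal markers were thus open throughout, and those of the hepatocyte markers were open in part.

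A promoter peak was called at each of the 10 genes in every library, a state shared by 63.5% of protein-coding genes. The promoter sequences show the elements by which these genes are grouped. RefSeq promoters (GRCh38.p14, 250 bases before to 50 after the start) were found for 8 of the 10, and AURKA and BIRC5 had no entry. The bases from 250 to 21 before the start are printed for the 5 genes with the most boxes whose boxes lie outside annotated untranslated exons, 5′ to 3′ on the strand of the gene. CCNA2, CDC25C and PLK1 tied at 1 box, and CCNA2 was taken by the order of names. Capitals mark CCAAT, its reverse complement ATTGG, and the CHR letters TTTGAA or TTCAAA. The stretches are chr15:59104896-59105125 on the plus strand for CCNB2, chr17:40417917-40418146 on the minus strand for TOP2A, chr5:69166900-69167129 on the plus strand for CCNB1, chr1:43358731-43358960 on the plus strand for CDC20 and chr4:121823904-121824133 on the minus strand for CCNA2.
CCNB2: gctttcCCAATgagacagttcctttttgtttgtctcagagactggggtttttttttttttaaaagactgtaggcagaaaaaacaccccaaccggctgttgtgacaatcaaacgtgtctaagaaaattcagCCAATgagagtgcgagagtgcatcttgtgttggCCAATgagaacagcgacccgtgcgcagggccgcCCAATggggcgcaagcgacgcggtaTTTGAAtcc
TOP2A: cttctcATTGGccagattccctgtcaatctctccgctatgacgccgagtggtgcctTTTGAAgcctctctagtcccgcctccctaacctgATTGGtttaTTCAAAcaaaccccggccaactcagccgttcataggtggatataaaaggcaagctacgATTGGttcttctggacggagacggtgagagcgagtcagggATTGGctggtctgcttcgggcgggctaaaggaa
CCNB1: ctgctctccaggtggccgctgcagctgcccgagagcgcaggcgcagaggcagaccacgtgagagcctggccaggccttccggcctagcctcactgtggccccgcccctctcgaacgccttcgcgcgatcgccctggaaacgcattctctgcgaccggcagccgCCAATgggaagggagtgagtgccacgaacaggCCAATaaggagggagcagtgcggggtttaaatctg
CDC20: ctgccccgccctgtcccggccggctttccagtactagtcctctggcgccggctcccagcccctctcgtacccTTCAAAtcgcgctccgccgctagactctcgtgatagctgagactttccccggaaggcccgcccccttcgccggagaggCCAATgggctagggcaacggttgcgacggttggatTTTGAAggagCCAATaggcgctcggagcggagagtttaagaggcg
CCNA2: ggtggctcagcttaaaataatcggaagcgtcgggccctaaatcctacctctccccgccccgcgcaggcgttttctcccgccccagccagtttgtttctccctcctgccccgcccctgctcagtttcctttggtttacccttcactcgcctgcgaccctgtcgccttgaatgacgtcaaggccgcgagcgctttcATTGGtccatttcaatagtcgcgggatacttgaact

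All 8 promoters held at least 1 CCAAT box, against 34.6% of the 35114 RefSeq promoters searched on both strands. At least 2 boxes were present in 5 of the 8, against 10.8% of all promoters. CCNB2 and TOP2A had 4 boxes each, CCNB1, CDK1 and CDC20 had 2, and CCNA2, CDC25C and PLK1 had 1. The box nearest to the start began 46 to 85 bases before it in every one of the 8 genes. The boxes read CCAAT along the gene in CCNB1, CCNB2, PLK1 and CDC20 and ATTGG in CCNA2, CDK1, CDC25C and TOP2A. The spacing between the starts of adjacent boxes was 32 bases in CCNB1 and CDK1 and 33 bases between each of the 3 proximal boxes of CCNB2. An adjacent pair 32 to 33 bases apart, a window chosen after the spacings had been seen, was present in 3 of the 8 promoters and in 0.672% of all promoters. The adjacent boxes of CDC20 were 45 bases apart, and those of TOP2A were 40, 67 and 84 bases apart.

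CHR letters, searched as TTTGAA or TTCGAA on both strands, were present in 6 of the 8 promoters and in 16.4% of all promoters. Both elements together were present in the same 6 genes and in 6.38% of all promoters. In CCNB2, CDC25C and PLK1 the CHR began 29 or 30 bases before the start, which places it downstream of the nearest CCAAT box. CDK1 carried CHR letters 13 bases before the start, and also 69 bases before it and 9 bases after it. In CDC20 they lay 65 and 178 bases before the start, and in TOP2A 151 and 194 bases before it, among the CCAAT boxes. CCNA2 and CCNB1 had no match to these letters, which says nothing about other forms of the element.

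The strongest summit of the promoter peak lay upstream of the canonical start in every gene and library, at 51 to 238 bp. Its distance from the nearest CCAAT box, measured in the 8 genes with a RefSeq promoter, differed between genes. In CCNB2 it lay 9 to 13 bp from the centre of the nearest box in all 6 libraries, and in PLK1 4 to 33 bp from its only box. In CCNB1 it lay 26 to 48 bp upstream of the distal box of the pair, and in CDC20 17 to 45 bp upstream of the distal box. CDC25C was the most distant, with summits 62 to 131 bp upstream of its box. The median distance in the DMSO libraries was 26.5 bp over the 8 genes, against 28 bp over the 3010 promoters that had a box and a DMSO summit in the RefSeq window. Distances are shorter where there are more boxes, so like promoters were set side by side. The 5 genes with at least 2 boxes had a median of 23 bp, against 16 bp over 1238 such promoters, and the 3 genes with 1 box had 50 bp, against 44 bp over 1772. The summits of the 8 genes were thus no closer to a box, by these medians, than those of promoters with a like number of boxes.

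**Figure D1:**
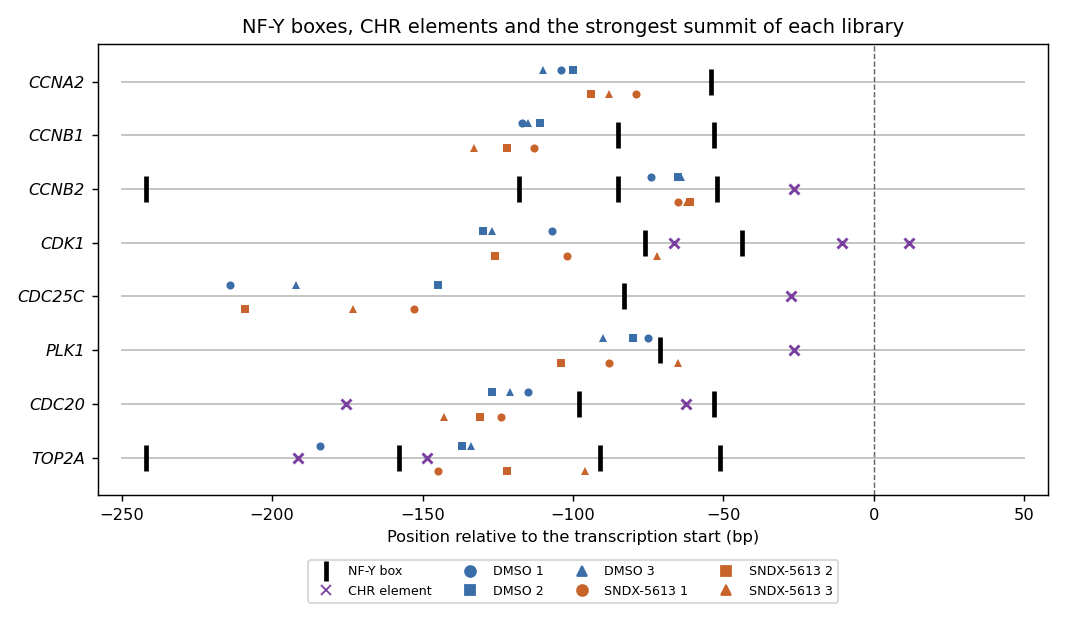
Positions of NF-Y (CCAAT) boxes, CHR elements and strongest ATAC-seq summits relative to the transcription start, in bp, for the 8 genes with a RefSeq promoter. Blue symbols above each line are the 3 DMSO libraries and orange symbols below it the 3 SNDX-5613 libraries, and every summit lies upstream of the start, by 61 to 74 bp in CCNB2 and by 145 to 214 bp in CDC25C.

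To compare libraries of unequal depth, accessibility was expressed as a rank. The 33405 sites that every library had called were ordered, library by library, by the -log10 p of their strongest summit, and a site's percentile gives its place from 0 (weakest) to 100 (strongest). Where a library is left out below, sites were ranked again among those shared by the libraries kept, so the scale of percentiles differs. In DMSO the 10 promoters stood at mean percentiles of 78.4 to 99.1, with a median of 96.9, against 80.0 over the 11068 promoter sites ranked. CCNB1 and CDC25C (99.1 each) were at the top with AURKA, whose 3 values were 97.6 to 99.8, followed by TOP2A (98.8), CDC20 (97.2), CDK1 (96.6), BIRC5 (93.2), CCNA2 (88.0), CCNB2 (83.6) and PLK1 (78.4). In this order the DMSO values of neighbours did not overlap between TOP2A and CDC20 or between CCNA2 and CCNB2, and they overlapped between all other neighbours. Among the promoter sites alone, PLK1 ranked at the 46.5th percentile, near the middle, and CCNB1 and CDC25C at the 98.4th.

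**Figure D2:**
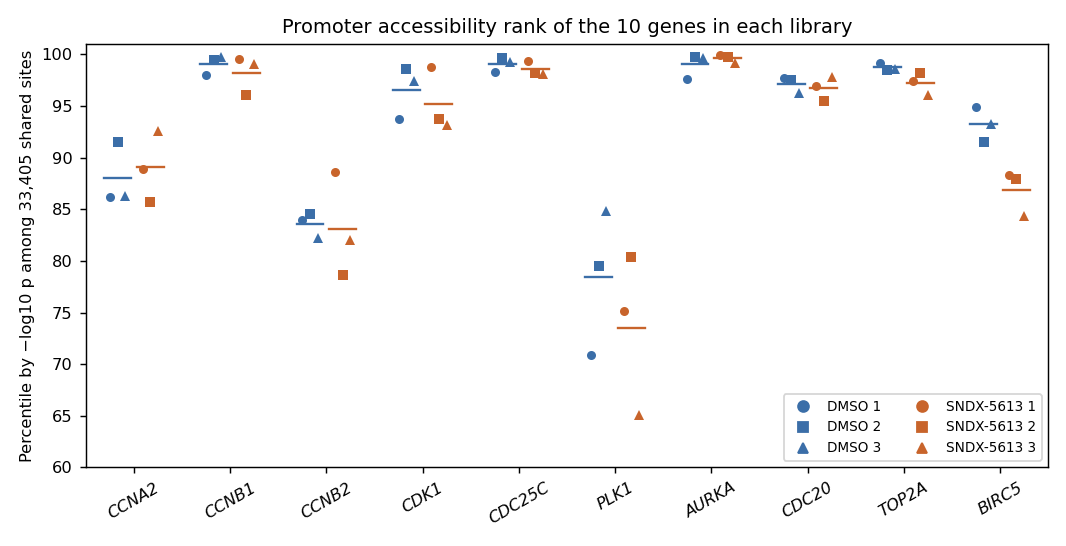
Percentile of each promoter peak among the 33405 shared sites, by -log10 p, for the 10 genes in each library (the axis starts at 60). Points are single libraries and bars are group means, and the SNDX-5613 points lie below all DMSO points in TOP2A and BIRC5 alone.

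The height of a peak and its enrichment over the local background ordered the genes differently. The pileup, which is the depth of stacked reads at the summit, was highest at AURKA, with 250, 421 and 389 in DMSO and 413, 379 and 60 in SNDX-5613. AURKA also had the highest local background, 16.4 to 22.8 in DMSO, so its fold enrichment was only 14.4, 19.2 and 16.4. At BIRC5 the DMSO background was 5.17 to 7.52 and the fold enrichment, 25.8, 26.3 and 23.9, was the highest of the 10 genes in each DMSO library. The AURKA promoter is shared with CSTF1, which starts 156 bp away on the opposite strand, and that of CDC25C with FAM53C, 131 bp away, so reads there cannot be assigned to either gene. Long noncoding RNA genes start on the opposite strand 201 bp from CCNB1 and 305 bp from CDC20 (CDC20-DT). In SNDX-5613 replicate 3 the pileups of the 10 genes were 17 to 60, with a counting interval (95%, exact Poisson) of 9.90 to 27.2 at PLK1, the lowest. Such intervals cover counting error only.

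**Figure D3:**
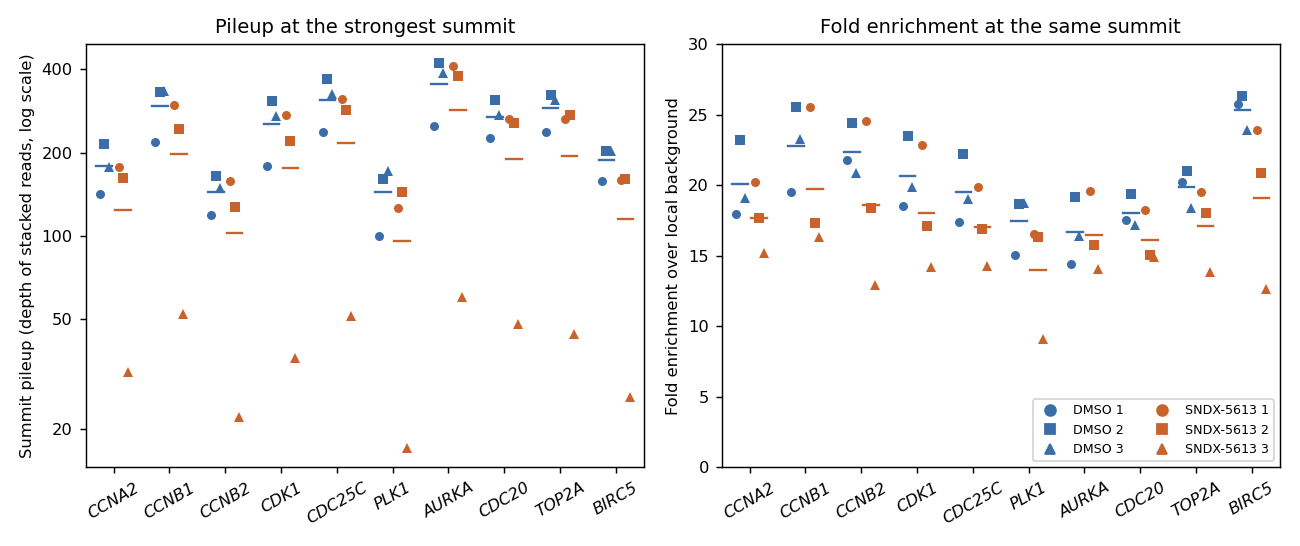
Summit pileup on a log axis (left) and fold enrichment over local background (right) at the strongest promoter summit of each gene and library. Points are libraries and bars are group means, and the pileups of SNDX-5613 replicate 3, 17 to 60, lie below those of every other library.

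None of the 10 promoters passed the test for a change in rank between SNDX-5613 and DMSO. In limma fitted over all 33405 sites, 0 of 10 passed an adjusted p of 0.05, with adjusted p from 0.417 to 0.993. An unadjusted p under 0.05 was found in 1 of 10 (BIRC5), and in 987 of the 11068 promoter sites. Over all promoter sites 0.235% were called, 24 higher and 2 lower in SNDX-5613. The difference was below 0 in 8 genes and above 0 in 2, with a median of -0.69 percentile points, against -0.40 over all promoter sites, of which 54.6% were lower. The groups did not overlap in 2 of 10 genes, both lower in SNDX-5613 (background 7.69% lower), and in 0 of 10 in the other direction (background 7.21% higher). The 2 genes were TOP2A and BIRC5.

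Among the cyclins, CCNA2, which pairs with CDK2 and CDK1 through S and G2 phase, stood at percentiles of 86.2, 91.5 and 86.3 in DMSO and 88.9, 85.7 and 92.5 in SNDX-5613. The groups overlapped throughout. CCNB1, the main mitotic partner of CDK1, stood at 98.0, 99.4 and 99.7 in DMSO and 99.6, 96.0 and 99.02 in SNDX-5613. CCNB2, the Golgi-associated B cyclin, stood at 84.0, 84.6 and 82.2 in DMSO and 88.6, 78.7 and 82.1 in SNDX-5613, where its highest and lowest values of all libraries were found. The differences of the 3 cyclins were 1.07, -0.85 and -0.47 percentile points, each within the spread of replicates, with adjusted p of 0.921, 0.825 and 0.993 in limma.

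CDK1, the kinase that triggers mitosis, stood at 93.7, 98.6 and 97.4 in DMSO and 98.7, 93.7 and 93.2 in SNDX-5613 (difference -1.37, adjusted p = 0.864 in limma). CDC25C, the phosphatase that removes the inhibitory phosphates from CDK1, stood at 98.3, 99.6 and 99.2 in DMSO and 99.3, 98.2 and 98.1 in SNDX-5613 (difference -0.52, adjusted p = 0.796 in limma). Both genes kept a place near the top of the ranking in every library, and their groups overlapped.

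PLK1, a kinase of mitotic entry and spindle assembly, varied most between libraries, at 70.9, 79.5 and 84.8 in DMSO and 75.1, 80.4 and 65.0 in SNDX-5613. Its difference of -4.91 was smaller than the replicate SD of each group (7.02 in DMSO and 7.79 in SNDX-5613, n = 3), and it was -0.35 without SNDX-5613 replicate 3. AURKA, the kinase of the centrosome and spindle poles, stood at 97.6, 99.8 and 99.7 in DMSO and 99.9, 99.8 and 99.2 in SNDX-5613. The AURKA difference of 0.58 had an adjusted p of 0.806 in limma, and it was -0.12 without DMSO replicate 1. Ranked by fold enrichment, which divides by the local background, it was 14.2 points (adjusted p = 0.713 in limma).

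CDC20, which activates the anaphase-promoting complex, stood at 97.7, 97.6 and 96.3 in DMSO and 96.9, 95.4 and 97.9 in SNDX-5613, with overlapping groups and a difference of -0.44. TOP2A, the enzyme that untangles sister chromatids, stood at 99.1, 98.5 and 98.6 in DMSO and 97.5, 98.2 and 96.1 in SNDX-5613. Here every SNDX-5613 library was below every DMSO library (98.8 ± 0.336 against 97.2 ± 1.07, SD, n = 3, exact permutation p = 0.1, the smallest that 3 against 3 allows). The limma adjusted p for TOP2A was 0.584. The difference of -1.53 was -0.53 without SNDX-5613 replicate 3, ranked again in the larger set of shared sites. Ranked by fold enrichment with all 6 libraries it was 2.08.

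BIRC5, which encodes survivin, a subunit of the chromosomal passenger complex and an inhibitor of apoptosis, had the largest difference of the 10 on this scale. The difference of PLK1 was larger without DMSO replicate 1 (-8.56 against -5.43) or SNDX-5613 replicate 2 (-8.29 against -6.86) and with each library's own list (-7.07 against -4.65), and that of AURKA was larger when ranked by fold enrichment (14.2 against -4.21). BIRC5 stood at 94.9, 91.5 and 93.3 in DMSO and 88.3, 88.0 and 84.3 in SNDX-5613, and every SNDX-5613 library was below every DMSO library. The group means were 93.2 ± 1.74 and 86.9 ± 2.22 (SD, n = 3), a difference of -6.36 points with an exact permutation p of 0.1. Without SNDX-5613 replicate 3 the difference was -2.83. It was ranked again among the larger set of sites shared by the other libraries, so the 2 values differ in scale. The groups did not overlap there either (background 12.3% lower), which leaving out a library could hardly have changed. With all 6 libraries the limma p was 0.020 before adjustment and 0.417 after it, so the difference was not called. The BIRC5 summit pileup was 158, 202 and 203 in DMSO and 159, 160 and 26 in SNDX-5613. Relative to each library's genome background it was 158, 155 and 140 against 126, 106 and 123. On that scale 3 of 10 members did not overlap, BIRC5, TOP2A and PLK1, all lower in SNDX-5613 (background 16.3% lower and 3.23% higher), and the PLK1 groups nearly touched, at 80.6 to 100 against 100.3 to 123 in DMSO. Scaled by the median ratio over all shared sites, the log2 ratio of SNDX-5613 to DMSO pileups was -0.27 (95% interval -0.49 to -0.04, adjusted p = 0.231 in limma). In the other 9 genes the log2 ratio lay between -0.22 (PLK1) and 0.12 (AURKA), and every one of these intervals included 0.

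**Figure D4:**
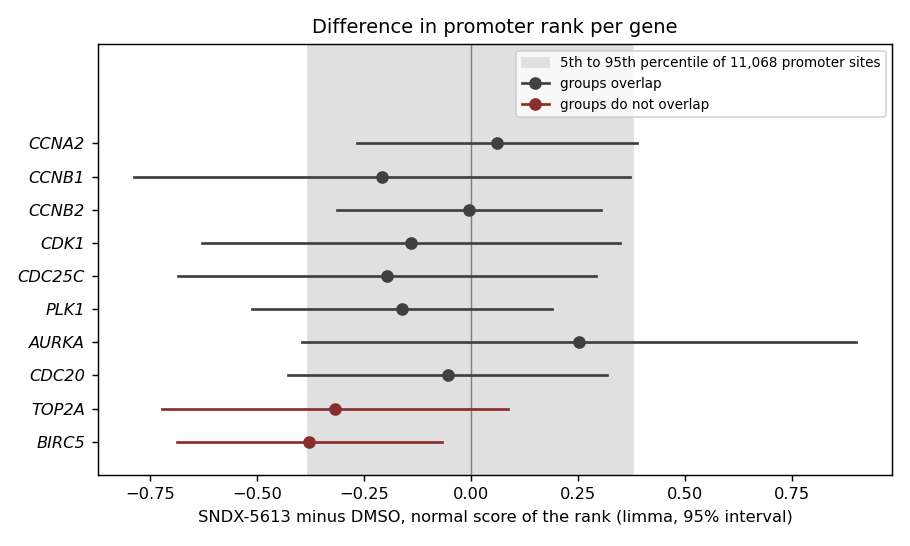
SNDX-5613 minus DMSO difference in promoter rank, as normal scores of the percentile, with limma 95% intervals, for the 10 genes. The grey band spans the 5th to 95th percentile of the 11068 promoter sites, from -0.38 to 0.38, and all 10 estimates lie within it, BIRC5 at -0.38 near its lower edge.

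The position of the strongest summit was compared as a second measure. It rests on height where a peak has several summits of like strength. Over the 6 libraries the summit of a gene spread over 13 to 88 bp, with a median of 35 bp, against a median of 38 bp over all promoter sites. CCNA2 was the only gene whose groups did not overlap, which is 1 of 10 where 11.3% of promoter sites did so. Its summits lay 104, 100 and 110 bp upstream of the start in DMSO and 79, 94 and 88 bp upstream in SNDX-5613, a shift of 17.7 bp towards the start and towards its CCAAT box (exact permutation p = 0.1). The TOP2A summit moved by a larger mean, from 152 ± 28.0 to 121 ± 24.5 bp upstream (SD, n = 3), but its groups overlapped (exact permutation p = 0.3). DMSO replicate 1 had a pair of strong summits there, 184 bp upstream with a pileup of 237 and 88 bp upstream with a pileup of 189. The TOP2A shift was 30.7 bp with the strongest summit, -1.33 bp with the one nearest to the start, and 14.5 bp without DMSO replicate 1. At AURKA it was 18.3 bp and -66 bp with these choices of summit. At CDC25C the summit lay 145 to 214 bp upstream in DMSO and 153 to 209 bp in SNDX-5613.

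Some promoter peaks held a second, weaker summit. At CCNB2 it lay 344 to 360 bp downstream of the start, in 5 libraries, with a fold enrichment of 7.28, 10.3 and 11.7 in DMSO and 5.24 and 6.49 in SNDX-5613 replicates 1 and 2. No such summit was listed in SNDX-5613 replicate 3, whose pileup at the main summit was 22. This summit was picked out after its values were seen and was not tested.

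In the gene bodies and 5 kb flanks, 43 accessible sites were found, of which 10 were the promoters. Of the 33 others, 4 had a peak in all 6 libraries and 13 in only 1. No site was present in 3 of 3 libraries of a group and in 0 of 3 of the other. The number of sites per library was 20, 24 and 27 in DMSO and 28, 30 and 14 in SNDX-5613, a difference of means of 0.33 (exact permutation p = 1). The 14 sites in SNDX-5613 replicate 3 were the fewest, and without that library the difference was 5.33 (exact permutation p = 0.2). When each list was cut to the same 40568 strongest regions, every library held 13 or 14 sites. CCNB2 had no site other than its promoter, and the only other site of CCNA2, 7.87 kb downstream of its start, had a peak in 1 library.

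The 4 other sites open in every library lay at CDC25C, CDC20 and TOP2A. At CDC25C one lay 6.47 kb upstream of the canonical start, at another annotated start of CDC25C that is also near a start of FAM53C, with fold enrichments of 14.3, 13.1 and 10.9 in DMSO and 12.4, 11.6 and 9.94 in SNDX-5613. The other CDC25C site lay 48.5 kb downstream of the start, past the 3′ end of the gene, at percentiles of 59.8, 45.9 and 27.3 in DMSO and 56.2, 36.7 and 46.7 in SNDX-5613. At both sites the groups overlapped. The CDC20 site lay 9.15 kb downstream, at the start of the neighbouring gene ELOVL1, a fatty acid elongase, and stood at 89.0, 88.2 and 86.0 in DMSO and 79.4, 85.1 and 76.0 in SNDX-5613, without overlap (adjusted p = 0.482 in limma). Inside TOP2A, 18.6 kb from the canonical start and within 1 kb of another annotated start, chr17:40399260-40399581 was open at percentiles of 24.5, 16.7 and 25.7 in DMSO and 6.68, 19.3 and 9.25 in SNDX-5613. The groups overlapped there through SNDX-5613 replicate 2 (adjusted p = 0.549 in limma).

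**Figure D5:**
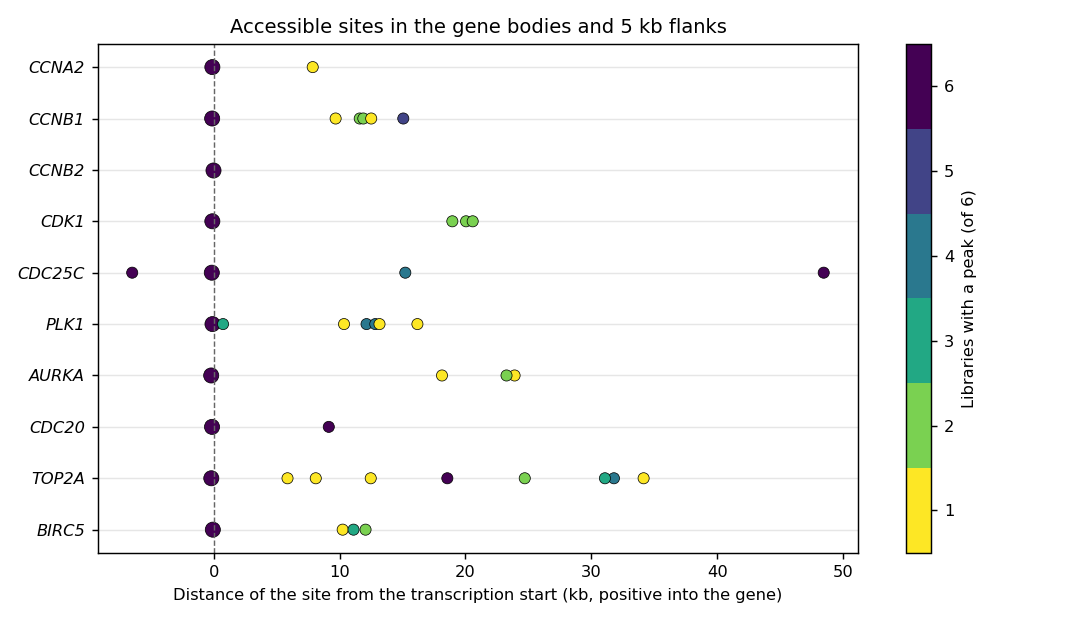
Accessible sites at the 10 genes by their distance from the canonical transcription start, in kb, with the number of libraries that had a peak as colour. Large symbols are the promoters, which were open in 6 of 6 libraries, and most of the 33 other sites were open in fewer, 13 of them in 1 library.

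The other genes of the G2/M programme were followed through a list of 44 genes, among them the passenger complex, the spindle checkpoint, mitotic kinesins and the DREAM and FOXM1 factors. Each of the 44 had an open promoter in every library. In limma 0 of 44 passed an adjusted p of 0.05 in either direction. An unadjusted p under 0.05 was found in 1 of 44, and in 987 of the 11068 promoter sites. The median difference was 0.96 percentile points, against -0.40 over all promoter sites, with 24 genes above 0 and 20 below. The groups did not overlap in 2 genes with higher values in SNDX-5613, BUB3 and PRC1 (4.55%, background 7.21%), and in 2 with lower values, PTTG1 and KIF11 (4.55%, background 7.69%).

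None of the 44 passed, so the 3 largest differences in each direction are given, as values. CDKN3, a phosphatase that acts on cyclin-dependent kinases, had a mean percentile of 86.6 ± 2.18 in DMSO and 92.3 ± 3.28 in SNDX-5613 (SD, n = 3), the only gene of the list with an unadjusted limma p under 0.05 (0.045). PLK4, the kinase of centriole duplication, had 70.9 ± 0.752 and 76.4 ± 13.3, and ANLN, the cleavage furrow protein anillin, had 85.8 ± 2.76 and 90.8 ± 5.26. On the lower side were KIF23, a kinesin of the central spindle, with 77.9 ± 3.33 and 70.1 ± 8.91, and the protease separase, ESPL1, with 86.0 ± 0.781 and 78.8 ± 13.5. PTTG1, the securin that holds separase inactive, had 88.8 ± 3.42 and 82.7 ± 4.66. SNDX-5613 replicate 3 held the value of its group furthest in the direction of the difference in PLK4, ANLN, KIF23, ESPL1 and PTTG1. In CDKN3 it held the lowest value of its group, 88.8, against that direction. Without it the differences of PLK4 and ESPL1 were -0.99 and 0.06 points, against 5.52 and -7.22 with it. Those of ANLN, KIF23 and PTTG1 were 1.10, -1.59 and -1.91, against 4.95, -7.82 and -6.11. The difference of CDKN3 was 4.18 without this library, against 5.71 with it. The values without this library were ranked again among a larger set of shared sites, so they also differ in scale.

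A list of 28 G1/S genes, which are largely driven by E2F factors, was taken as a comparison. All 28 were open in all 6 libraries, and 0 passed an adjusted p of 0.05 in limma. Against 987 of the 11068 promoter sites, 2 of the 28 had an unadjusted p under 0.05, both lower in SNDX-5613. These were TYMS, thymidylate synthase (77.4 ± 2.10 in DMSO and 67.6 ± 3.77 in SNDX-5613, SD, n = 3), and RRM1, the large subunit of ribonucleotide reductase (95.5 ± 0.604 and 90.7 ± 4.35). They were also the 2 genes of the list whose groups did not overlap (7.14%, background 7.69% lower). The median difference was -1.21 points. The other largest differences were those of E2F2 (62.7 ± 2.13 and 46.8 ± 21.7, with 22.3 in SNDX-5613 replicate 3) and CDK2 (91.7 ± 4.76 and 85.9 ± 3.08) on the lower side, and of cyclin D1, CCND1 (55.7 ± 6.85 and 63.1 ± 1.45), the phosphatase CDC25A (88.9 ± 1.98 and 93.6 ± 2.53) and the replication factor CDC45 (91.7 ± 4.09 and 94.8 ± 2.35) on the higher side. In limma their adjusted p lay above that of TYMS, 0.482. Without SNDX-5613 replicate 3 the lower-side differences were smaller, TYMS at -4.46 points against -9.81, E2F2 at -2.10 against -15.9 and CDK2 at -2.23 against -5.76. On the higher side CCND1 was at 5.25 against 7.37, CDC25A at 2.01 against 4.75 and CDC45 at 1.00 against 3.14. The values without this library were ranked again among a larger set of shared sites. How much of each change came from the new ranking or from the missing library was not tested. The difference between the lists was not tested.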

How the data were processed

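HLF libraries (3 DMSO, 3 SNDX-5613, groups and numbers from the labels) were analysed from 6 peak lists and 2 consensus region sets in hg38. Per the study's methods, the authors used Bowtie2 for alignment, Picard for marking duplicates and RMSPC for the consensus sets. The submitters' processing notes list Bowtie2 2.3.4.1, Picard 2.20.0, Trim Galore 0.6.7, deepTools 3.5.4 and MACS2. A Tn5 shift, removal of duplicates and a blacklist are not given in the sources used here, and a missing shift would move summits by a few bases. The deposited lists, called per library, give the authors' fold enrichment (a ratio to local background), −log10 p, −log10 q and summits. Of the pooled consensus sets only regions were used, and each of the 10 promoters had 1 region in both. The authors tested read counts, which were not used here.

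Regions overlapping by 1 bp were merged into 166021 sites. A promoter was the site within 1 kb of any GENCODE 44 start that most libraries held, then the strongest. Pileup and background were solved from fold = (pileup + 1) / (background + 1) and the Poisson p, for over 99.9% of summits, and the most frequent background served as depth. Normal scores of percentiles were fitted with limma 3.58.1 (trend, R 4.3.3) with Benjamini-Hochberg adjustment over all 33405 sites. Simulated shifts of 0.5, 1 and 2 score units were recovered in 9.09%, 65.7% and 97.0% of cases among these sites. The simulated noise of a site was equal in all 6 libraries, so the lower depth of SNDX-5613 replicate 3 was not modelled. Single values were compared by two-sided exact permutation tests. RefSeq promoters were searched by script and equalled hg38 in the 8 genes found. CDK1 is not printed, since an untranslated exon of another transcript lies over its boxes.

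All 10 members are named, and of the wider lists the 3 largest differences each way. BUB3, PRC1, KIF11 and RRM1 were named after their values were seen. Members and lists were chosen with earlier results of these data known. One gene of the hepatocyte marker list is not reported here.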

Additional observations from a re-analysis of the deposited data

How the results depend on the processing

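The read totals are unknown, and the low depth of SNDX-5613 replicate 3 limits every comparison. At 3 libraries a group, simulated rank shifts of 0.5 score units were recovered in 9.09% of cases, with equal noise given to every library. Under every alternative tried, 0 of 10 members passed an adjusted p of 0.05 in limma, 0 genes of the wider lists passed, and the 10 members kept a promoter peak in all libraries used, with stricter lists, equal lists and a 500 bp distance included. BIRC5 stayed lower in SNDX-5613, without overlap, throughout (adjusted p 0.231 to 0.889 in limma). The same held for 3.45% to 14.5% of all promoter sites, by setting. A replicate block, array weights or a left-out library could hardly cause overlap. In the genes with a RefSeq promoter, CCAAT boxes were found in 8 of 8 within 100 bases of the summit. The share over all promoter sites was 33.7%. From 500 bases before to 100 after the start, boxes were found in 8 of 8, against 52.8% of protein-coding genes. That window contains the RefSeq window of these genes, so its 8 of 8 was certain. CHR letters were found in 5 of the 8 within 100 bases of the summit, against 4.93% of all promoter sites. The summit window and the wider window also covered AURKA and BIRC5 within the shares over all sites and genes. Their own counts are not given.

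Ranked by fold enrichment, the median difference of the members was 2.19 points, against 3.71 over all promoter sites. On that scale 1 member (BIRC5, lower) did not overlap (background 3.45% lower and 11.6% higher), and 0 promoter sites were called. CCNB1 (0.17), CDK1 (2.299), CDC25C (2.93), CDC20 (3.65) and TOP2A (2.08) turned positive, while AURKA was at 14.2 against 0.58. CCNA2 turned negative with log2 pileups (-0.022 on the log2 scale, 184 promoter sites called), with each library's own list (-0.67, 0 sites called, CCND1 -2.77) and with array weights (-0.83, 114 sites called). The main count was 26 promoter sites. The cause of these differences was not tested. The difference in sites per library was -1.67 with a -log10 q of at least 3, and -0.33 with equal lists and with a 10 kb flank. Taking the summit nearest to the start, the median shift was -2.67 bp, against 5.17 bp for the strongest.

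Leaving out 1 library at a time, 2 to 4 members did not overlap, all lower in SNDX-5613. CCNB2 and CDC25C were added without SNDX-5613 replicate 1 (background 14.5% lower and 12.8% higher). In these fits the background ran from 12.1% to 14.5% lower and from 10.6% to 13.3% higher. From 1 (without DMSO replicate 2) to 81 (without SNDX-5613 replicate 3) promoter sites were called. Each fit ranked the sites again among those shared by the libraries kept, so its percentile differences are on another scale. The difference in sites per library ran from -2.67 to 5.33. The ranges were -0.37 to 2.82 points for CCNA2, -1.54 to 0.25 for CCNB1, -3.20 to 1.73 for CCNB2, -0.12 to 0.95 for AURKA, -0.89 to 0.20 for CDC20, -13.2 to 0.057 for ESPL1 and -0.99 to 11.2 for PLK4.

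With the replicate number as a block, the median difference was unchanged at -0.69, 25 promoter sites were called and no member's call changed. Deviations of same-numbered libraries correlated at 0.016, 0.00053 and 0.0070, so the numbers were not taken as pairs, although the study's methods describe dishes divided between the treatments. Paired sign flips of summit positions bear on p alone and not on the median of 5.17 bp, and their smallest p is 0.25.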
